A study of Mus musculus with 18 samples.

Results

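The genes described here are 35 named genes of fatty acid uptake, activation, carnitine transfer, beta-oxidation and electron transfer, read on Affymetrix arrays in mouse cardiac ventricles in which the gene of serum response factor (SRF), a transcription factor of muscle genes, had or had not been deleted. They were chosen by symbol, and each was read from its probe set of highest mean, where those of the _x_at kind, which can bind several transcripts, were used only if a gene had no other. This passed over a brighter probe set for 1 member, Hadh. Of the 35 genes, 33 had a probe set of their own above the filter on dim signal, among 12616 genes tested in all. Acsl1, an acyl-CoA synthetase of heart, had no probe set under its name in the annotation used, and the only probe set of Cpt1b, the muscle form of carnitine palmitoyltransferase I, is annotated to other genes as well, so neither is reported.

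The 18 hearts came from male mice of 10 weeks, strain CR7BL6 in the labels, with 1 array per heart. Tamoxifen (0.7 mg on 3 days) was given to every mouse, mutants (SRFHKO) and controls alike, the controls being littermates that carry SRF-flex2neo without the deletion. At day 8 after tamoxifen there were 4 SRFHKO and 2 control hearts. At day 25 there were 3 hearts each of SRFHKO with phenylephrine (PE), SRFHKO, control with PE and control. PE, which stimulates alpha-1 adrenergic receptors and is used to provoke cardiac growth, ran from osmotic minipumps at 80 mg/kg/day between days 10 and 25. The labels used here do not name the driver of the recombinase, and the whole ventricle holds other cell types beside cardiomyocytes.

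Heart muscle takes most of its ATP from long-chain fatty acids. These enter the cell through carriers such as Cd36 or are freed from lipoproteins by Lpl, are activated to acyl-CoA, cross the inner mitochondrial membrane as carnitine esters, and are shortened in turns of a spiral of dehydrogenation, hydration, dehydrogenation and thiolysis. Electrons from the first step pass through the electron transfer flavoprotein (Etfa and Etfb) and Etfdh to ubiquinone, and nuclear receptors of the PPAR and ERR families with their PGC-1 coactivators drive transcription of many of these genes in heart.

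All 16 cardiomyocyte markers examined were above the filter. Before scaling, the trimmed mean signal of an array lay between 75.9 and 85.4 in SRFHKO with PE, 71.2 and 83.5 in SRFHKO, 52.5 and 75.3 in control with PE and 46.6 and 68.5 in control hearts at day 25, and between 110 and 148 on all arrays of day 8. Day 25 arrays of SRFHKO hearts were thus brighter than those of controls, with no overlap between SRFHKO and control in the absence of PE or in its presence. Genotype and array brightness can therefore not be told apart at day 25. The ratio of 3' to 5' Gapdh signal, a sign of RNA integrity, lay between 0.824 and 0.863 in SRFHKO with PE, 0.820 and 0.835 in SRFHKO, 0.846 and 0.900 in control with PE and 0.868 and 0.945 in control hearts at day 25. All values below are signals scaled to a common trimmed mean of 90.6, and differences are in log2 of the scaled signal plus 2, with standard errors. The hearts are labelled as biological replicates, and the number of arrays limits the precision.

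At day 25 the fatty acid oxidation genes stood lowest in SRFHKO hearts that had received PE. Of the 33 members, 29 had their lowest group mean of day 25 in SRFHKO with PE, as did 29.2% of all genes tested. For 26 members the highest mean was in control hearts without PE, the group that was highest for 35.6% of all genes. For 15 of the 33 members each of the 3 SRFHKO arrays with PE lay below the other 9 arrays of day 25, against 2.34% of all genes, a count chosen after the values were seen. These 15 were the very-long-, medium- and long-chain acyl-CoA dehydrogenases Acadvl, Acadm and Acadl, the trifunctional protein subunits Hadha and Hadhb, the hydratase Echs1, the thiolase Acaa2, the auxiliary enzymes Eci1, Eci2 and Decr1, the electron carriers Etfa, Etfb and Etfdh, the carnitine carrier Slc25a20 and malonyl-CoA decarboxylase Mlycd. The 4 remaining members were lowest in another group: Cd36 in control hearts, Slc27a1 and Cpt1a in control hearts with PE and Acaa1a in SRFHKO hearts without PE. Under scaling to array medians, an alternative that moved the median difference of all genes by over 0.1 in most contrasts, the counts were 6 members apart, against 0.618% of all genes, and 24 members lowest in SRFHKO with PE.

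**Figure D1:**
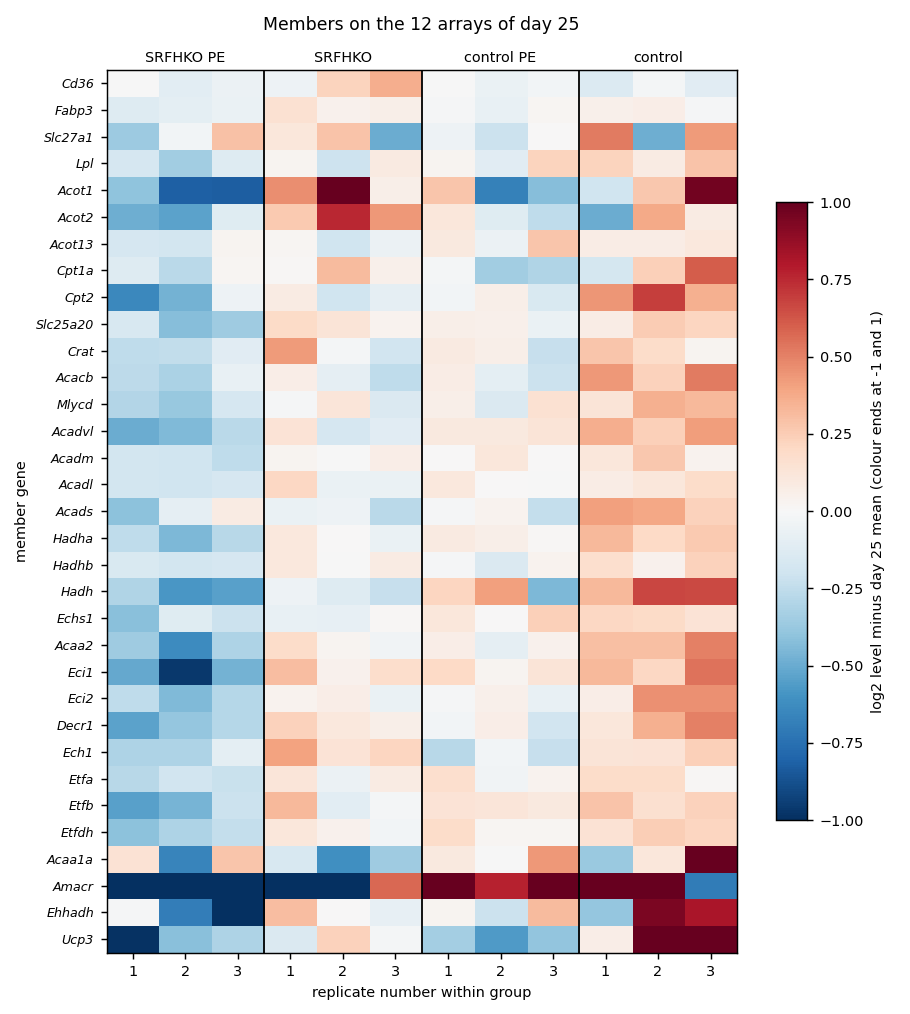
Each row is a member and each column one of the 12 arrays of day 25, with the log2 level minus the member's mean over those arrays as colour (blue lower, red higher). The 3 columns of SRFHKO with PE at the left are blue for most members, and the control columns at the right are mostly red.

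The members' median deviation from their means over the 18 arrays was -0.35, -0.42 and -0.20 in SRFHKO with PE, 0.10, -0.01 and -0.02 in SRFHKO, 0.07, -0.02 and 0.01 in control with PE and 0.16, 0.23 and 0.24 in control hearts at day 25. The SRFHKO arrays with PE were thus all below the other arrays of that day and the control arrays all above them, while SRFHKO and control with PE overlapped. Cardiomyocyte markers moved along with genotype: their summed scaled signal was 113600 to 120400 in SRFHKO with PE, 114300 to 136000 in SRFHKO, 130900 to 155100 in control with PE and 146400 to 160300 in control hearts. Their part in the members' differences was not tested. In whole ventricle, fewer cardiomyocytes and less of a transcript per cardiomyocyte cannot be told apart. This holds for the markers, themselves muscle genes, as well as for the members.

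**Figure D2:**
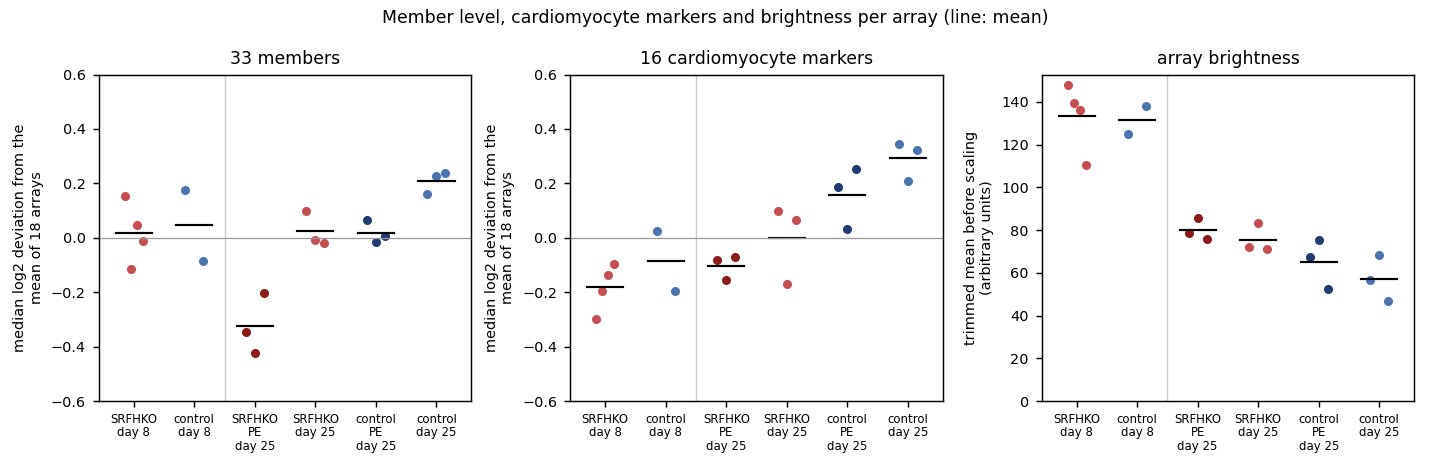
Points are arrays and lines group means. The left panel gives the median log2 deviation of the 33 members, the middle panel that of 16 cardiomyocyte markers and the right panel the trimmed mean signal before scaling. The members are lowest in SRFHKO with PE (-0.42 to -0.20). The marker medians are -0.08, -0.16 and -0.07 in SRFHKO with PE and 0.10, -0.17 and 0.065 in SRFHKO without PE.

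Sequences just upstream of member genes were read from RefSeq promoter tables (assembly GRCm38.p6), in which 28 of the 35 genes had an entry. The 250 bases before the start are shown for Acadvl (chr11:70015429-70015678, minus strand), Eci1 (chr17:24426433-24426682, plus strand), Etfb (chr7:43443822-43444071, plus strand) and Ech1 (chr7:28825088-28825337, plus strand), 4 of the 6 genes past the threshold in at least 1 contrast (Decr1 and Amacr are not shown), and for Hadha (chr5:30154981-30155230, minus strand), which passed in none and whose start lies 273 bases from that of Hadhb on the other strand, so that 228 bases of this window are also the Hadhb window. They are written 5' to 3' on the gene's strand, and capitals mark AGGTCA, the core hexamer that nuclear receptors of the PPAR and ERR families bind.
Acadvl: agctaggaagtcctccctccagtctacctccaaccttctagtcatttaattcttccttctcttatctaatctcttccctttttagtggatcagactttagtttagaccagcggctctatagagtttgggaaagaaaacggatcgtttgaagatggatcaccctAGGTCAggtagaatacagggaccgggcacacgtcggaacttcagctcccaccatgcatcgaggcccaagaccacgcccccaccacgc
Eci1: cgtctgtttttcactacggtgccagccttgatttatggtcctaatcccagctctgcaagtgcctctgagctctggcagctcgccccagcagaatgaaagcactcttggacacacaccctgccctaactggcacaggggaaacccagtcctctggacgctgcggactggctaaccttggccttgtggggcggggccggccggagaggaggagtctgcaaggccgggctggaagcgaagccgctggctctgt
Etfb: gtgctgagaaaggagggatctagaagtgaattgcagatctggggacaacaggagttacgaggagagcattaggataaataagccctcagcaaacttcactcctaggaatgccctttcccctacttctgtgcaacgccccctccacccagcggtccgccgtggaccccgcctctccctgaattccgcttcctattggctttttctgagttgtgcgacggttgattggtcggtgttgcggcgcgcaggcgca
Ech1: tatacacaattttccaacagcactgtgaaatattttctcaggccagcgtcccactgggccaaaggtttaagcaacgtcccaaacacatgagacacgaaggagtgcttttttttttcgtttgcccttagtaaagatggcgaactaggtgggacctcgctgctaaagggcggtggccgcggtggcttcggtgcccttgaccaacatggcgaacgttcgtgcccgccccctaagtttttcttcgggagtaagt
Hadha: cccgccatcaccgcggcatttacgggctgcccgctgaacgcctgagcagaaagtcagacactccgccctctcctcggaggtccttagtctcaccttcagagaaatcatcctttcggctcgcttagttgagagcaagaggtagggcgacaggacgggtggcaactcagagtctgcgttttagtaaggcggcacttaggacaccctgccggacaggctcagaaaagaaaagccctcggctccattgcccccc
AGGTCA, searched on both strands, occurred once in the Acadvl window, 87 to 82 bases before the start, and in none of the windows of Eci1, Etfb, Ech1 and Hadha. It was found in 6 of the 31 windows of the 28 member genes (Acadm, Acadvl, Cd36, Cpt1a, Echs1 and Ucp3), against 14% of all 32851 windows. The longer ERR element TNAAGGTCA was in 0 member windows and 1.14% of all, and the same held for the paired PPAR and RXR element DR1 (0.0335% of all) and for the CArG box, the element SRF binds (1.47% of all), all searched on both strands. ERR elements contain the hexamer, so the counts overlap, and they describe only these letters in these windows.

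SRFHKO hearts were compared with control hearts under PE to ask what deletion does when both genotypes are stimulated. Of 33 members 4 fell and 0 rose, while 0.896% of all genes were called lower and 0.737% higher. The 4 were Acadvl, Etfb, Eci1 and Amacr. Of the 33 differences 31 were below 0, against 50.5% of all genes, with a median of -0.30, against -0.00 over all genes.

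Acadvl, the very-long-chain acyl-CoA dehydrogenase that opens the spiral at the inner membrane, had scaled signals of 2551, 2651 and 2981 in SRFHKO hearts with PE, against 3844, 3840 and 3926 in control hearts with PE. The groups did not overlap, and the level was 1.42-fold lower in SRFHKO (-0.51 ± 0.09, limma adjusted p = 0.00725). For Acadm, the medium-chain enzyme, the arrays were at 5516, 5456 and 5240 in SRFHKO with PE and 6264, 6768 and 6277 in control with PE, apart again but not past the threshold (-0.25 ± 0.08, limma adjusted p = 0.137). Acadl, the long-chain enzyme, stood at 4835, 4780 and 4880 in SRFHKO with PE, against 5877, 5494 and 5453 in control with PE (-0.21 ± 0.09, adjusted p = 0.234). The short-chain enzyme Acads showed 352, 440 and 497 in SRFHKO with PE, overlapping 466, 481 and 397 in control with PE (-0.07 ± 0.12). All 4 acyl-CoA dehydrogenases had differences below 0, and 1 of them passed.

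Among the enzymes that complete the spiral, 5 of 5 differences were below 0 and none passed. Hadha, the hydratase and hydroxyacyl-CoA dehydrogenase subunit of the trifunctional protein, was at 2011, 1762 and 1982 in SRFHKO with PE, against 2552, 2509 and 2423 in control with PE (-0.38 ± 0.10, limma adjusted p = 0.0622). Its partner Hadhb, the thiolase subunit, was at 5955, 5833 and 5899 in SRFHKO with PE, against 6561, 5986 and 6794 in control with PE, close together but not overlapping (-0.13 ± 0.10). Echs1, the short-chain hydratase, differed by -0.37 ± 0.09 (adjusted p = 0.0518) and Acaa2, the mitochondrial thiolase, by -0.44 ± 0.13 (adjusted p = 0.109). The short-chain hydroxyacyl-CoA dehydrogenase Hadh differed by -0.53 ± 0.26 with overlapping arrays.

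Eci1, the enoyl-CoA isomerase needed for unsaturated chains, had 1951, 1424 and 2008 in SRFHKO with PE, against 3195, 2836 and 3051 in control with PE. It was 1.70-fold lower in SRFHKO (-0.77 ± 0.15, limma adjusted p = 0.0126). The other 3 auxiliary enzymes had differences of -0.32 ± 0.14 (Eci2), -0.35 ± 0.11 (Decr1, a dienoyl-CoA reductase) and -0.06 ± 0.10 (Ech1, a dienoyl-CoA isomerase), none past the threshold.

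Etfb, the beta subunit of the electron transfer flavoprotein, stood at 2800, 2948 and 3515 in SRFHKO with PE, against 4473, 4429 and 4360 in control with PE. The 3 SRFHKO arrays were all below the control arrays, and the level was 1.44-fold lower (-0.52 ± 0.10, limma adjusted p = 0.0126). Its partner Etfa differed by -0.28 ± 0.08 (adjusted p = 0.0800). Etfdh, which hands the electrons to ubiquinone, was at 1988, 2128 and 2235 in SRFHKO with PE, against 2986, 2674 and 2667 in control with PE (-0.39 ± 0.10, adjusted p = 0.0660).

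Amacr, the racemase that lets branched-chain acyl-CoA enter oxidation, had signals of 41.5, 40.3 and 50.1 in SRFHKO with PE, against 263, 178 and 262 in control with PE (-2.35 ± 0.55, limma adjusted p = 0.0372). On the other arrays Amacr fell into a low and a high range within groups: 42.6, 50.9 and 156 in SRFHKO, 299.6, 223 and 63.5 in control, 208, 199, 64.1 and 56.3 in SRFHKO at day 8 and 68.7 and 49.1 in control at day 8. Single groups thus held hearts in both ranges. Ehhadh, the peroxisomal bifunctional enzyme, was dim, with 45.9, 27.9 and 21.9 in SRFHKO with PE and 47.2, 39.6 and 58.2 in control with PE (-0.62 ± 0.30).

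None of the 4 genes of uptake passed the threshold under PE. Cd36, the fatty acid translocase, read 3907, 3647 and 3765 in SRFHKO with PE and 3921, 3757 and 3851 in control with PE (-0.03 ± 0.09). Fabp3, the heart fatty acid binding protein, read 10010, 10220 and 10450 in SRFHKO with PE and 10870, 10430 and 11070 in control with PE (-0.08 ± 0.08). Lpl, the lipoprotein lipase, was at 9012, 7934 and 9270 in SRFHKO with PE, against 10330, 9375 and 11800 in control with PE (-0.26 ± 0.11, limma adjusted p = 0.267), with every SRFHKO array below the control arrays. The transport protein Slc27a1 was at 124, 157 and 197 in SRFHKO with PE and 155, 138 and 160 in control with PE (0.06 ± 0.24). A second probe set of Slc27a1 gave -0.35. The differences of Cd36, Fabp3 and Slc27a1, as read here, were between -0.10 and 0.10. Further probe sets gave -0.17 and -0.07 for Cd36 and -0.37 for Fabp3.

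The carnitine shuttle and its control by malonyl-CoA had 5 of 6 differences below 0 and none past the threshold. Slc25a20, which exchanges acylcarnitine for carnitine, differed by -0.32 ± 0.12, with all SRFHKO arrays below the control arrays. Cpt2, which returns the acyl group to CoA inside the mitochondrion, was at 693, 782 and 1048 in SRFHKO with PE, against 1066, 1129 and 973 in control with PE (-0.35 ± 0.18). Mlycd, which removes malonyl-CoA, was at 202, 191 and 222 in SRFHKO with PE, against 259, 225 and 276 in control with PE (-0.30 ± 0.14). Acacb, which makes it, was at 547, 527 and 624 in SRFHKO with PE and 694, 614 and 568 in control with PE (-0.14 ± 0.14). Mlycd arrays were apart, and those of Acacb and Cpt2 overlapped. Cpt1a, the liver form of the gate enzyme, was at 232, 210 and 257 in SRFHKO with PE and 251, 200 and 206 in control with PE (0.09 ± 0.19), and Crat, which moves acyl groups of short chains between carnitine and CoA, differed by -0.18 ± 0.14.

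The thioesterases, which free fatty acids from CoA, had 3 of 3 differences below 0 and none past the threshold. Acot1, of the cytosol, was at 32.8, 24.1 and 24.0 in SRFHKO with PE and 53.8, 26.8 and 32.4 in control with PE (-0.41 ± 0.37). Acot2, its close mitochondrial paralog, was at 821, 795 and 1059 in SRFHKO with PE and 1250, 1063 and 965 in control with PE (-0.30 ± 0.24). Acot13, also mitochondrial, differed by -0.21 ± 0.10, and Ucp3, a mitochondrial carrier named as an uncoupling protein, by -0.14 ± 0.34, at 31.1, 47.0 and 50.9 in SRFHKO with PE and 49.8, 42.3 and 48.0 in control with PE. The arrays of the 2 groups overlapped for each of these genes.

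Acadvl remained past the threshold with each array of the compared groups left out in turn. The other calls did not: without control PE replicate 1 or 3 or SRFHKO PE replicate 2 the limma adjusted p of Eci1 was 0.0620, 0.0563 and 0.0864, and Etfb went to 0.0530, 0.0584 and 0.0732 without control PE replicate 1 and SRFHKO PE replicates 1 and 2, while Amacr lost its call without any of 5 of the 6 arrays (0.0695 to 0.136, all but control PE replicate 2). Without control PE replicate 1 or SRFHKO PE replicate 2 the count of members called was 1, without control PE replicate 3 or SRFHKO PE replicate 1 it was 2, and it was also 1 with array brightness as a covariate, where Acadvl differed by -0.45 (adjusted p = 0.0482), and under scaling to array medians, where Eci1 was called and Acadvl was not (adjusted p = 0.0604).

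**Figure D3:**
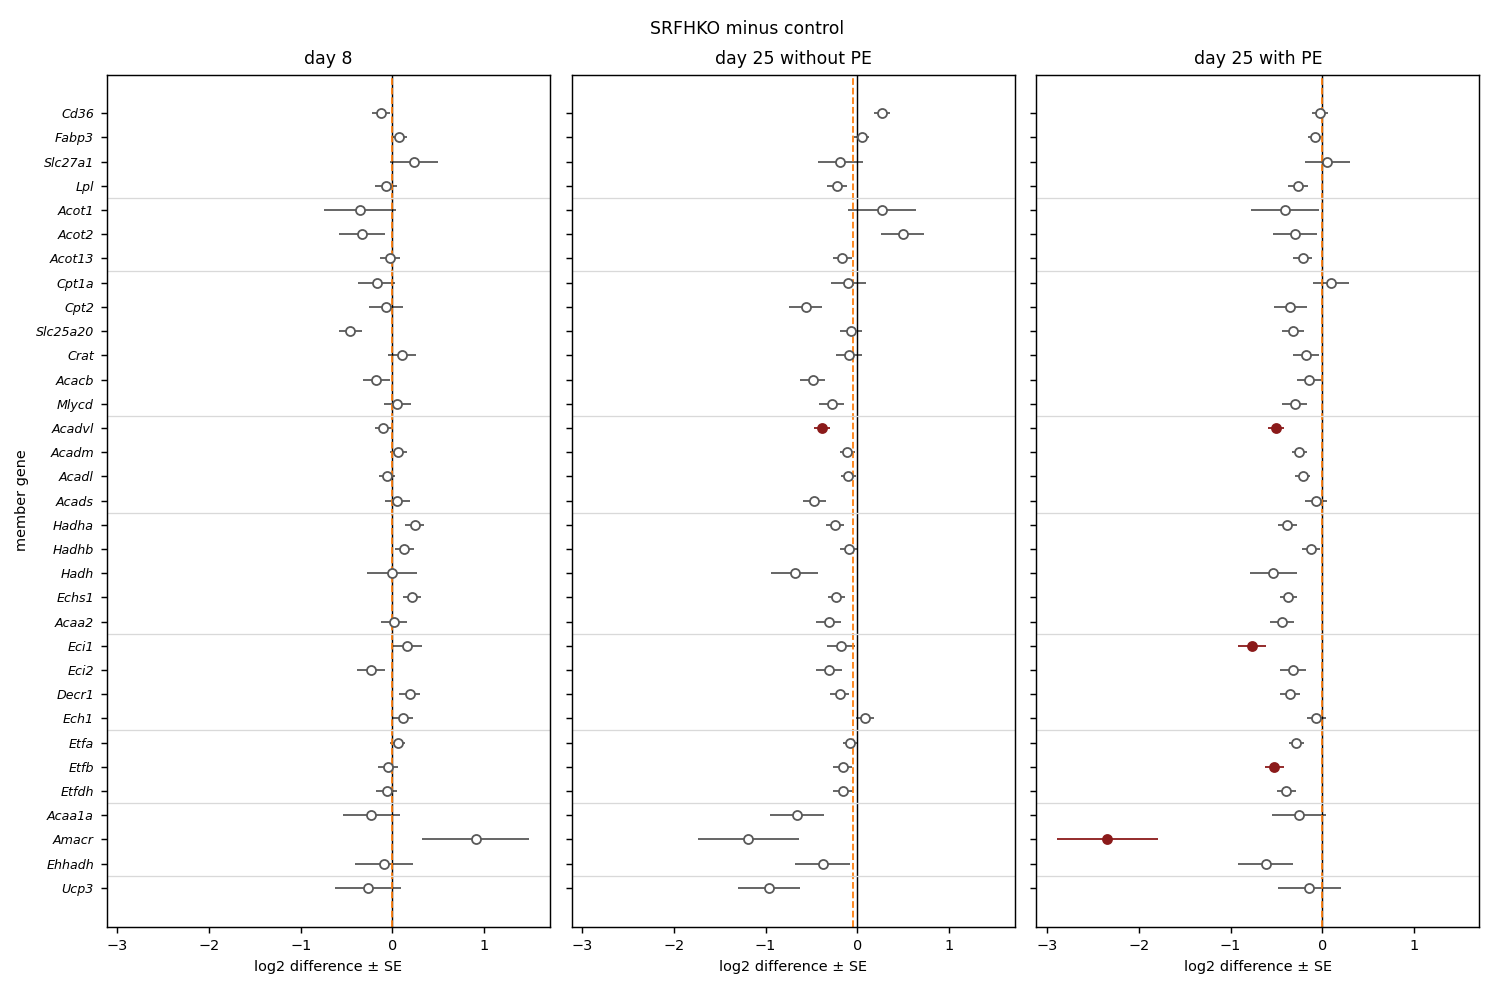
Points are log2 differences of SRFHKO minus control for the 33 members, with standard errors, at day 8, day 25 without PE and day 25 with PE. Filled red points have a limma adjusted p under 0.05, grey lines part the groups of members by role and the dashed line is the median of all genes. At day 25 with PE 31 of 33 points lie below 0 and 4 are filled.

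**Figure D4:**
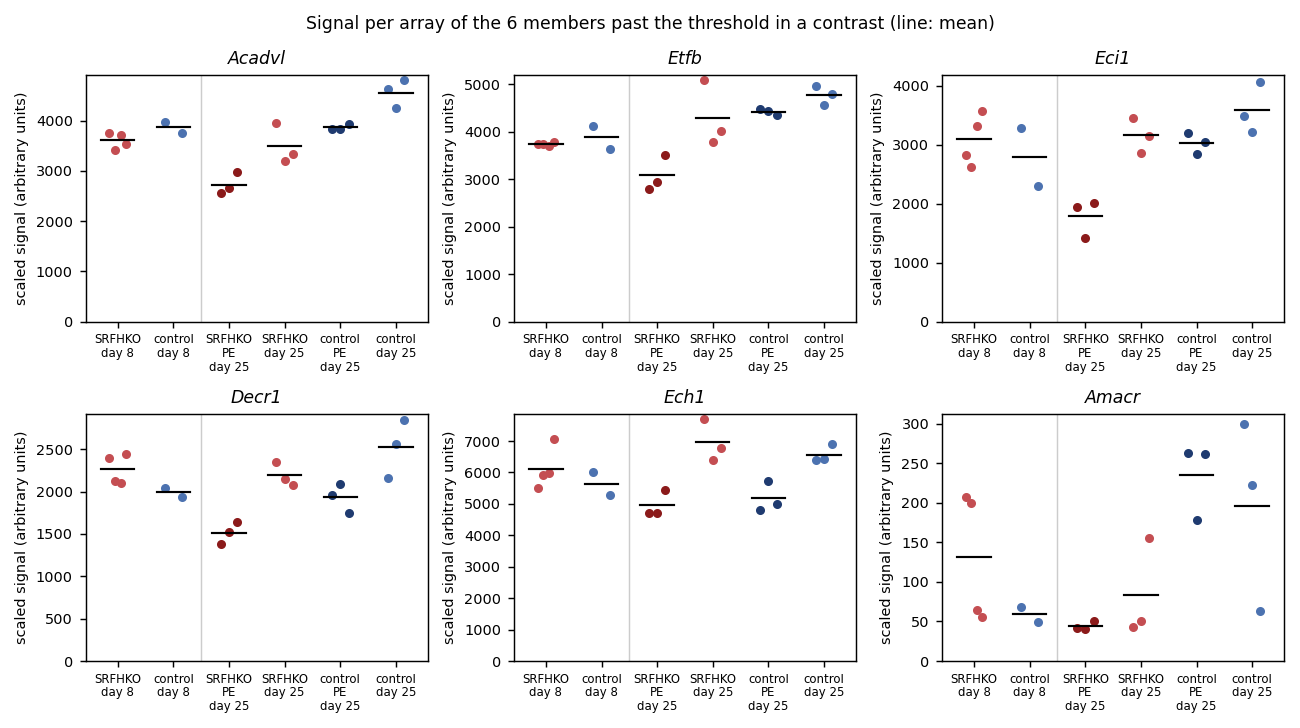
Scaled signal (arbitrary units) of the 6 members past the threshold in at least 1 contrast, 1 point per array with the group mean as a line. The 3 arrays of SRFHKO with PE lie below the other arrays of day 25 for Acadvl, Etfb, Eci1 and Decr1. For Amacr single groups hold both low and high arrays.

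Without PE at day 25, 1 of 33 members fell in SRFHKO hearts and 0 rose, against 1.08% of all genes called lower and 1.26% higher. The member was Acadvl, with 3963, 3202 and 3330 in SRFHKO and 4631, 4242 and 4805 in control hearts, 1.31-fold lower without overlap (-0.39 ± 0.09, limma adjusted p = 0.0286). Of the 33 differences 28 were below 0, against 55.7% of all genes, and their median was -0.18, against -0.05 over all genes. Under scaling to array medians the median of all genes was 0.17 and that of the members 0.04, with 49 genes called lower and 791 higher, against 136 and 159 under the trimmed mean. The member median less that of all genes was -0.13 under that scaling and -0.14 under the trimmed mean, and Cd36 was the 1 member called (0.49, adjusted p = 0.0179).

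Several members came near the threshold without PE. Acads stood at 448, 453 and 388 in SRFHKO hearts, against 624, 614 and 551 in control hearts (-0.47 ± 0.12, limma adjusted p = 0.0526), with no overlap. Acacb, acetyl-CoA carboxylase of the mitochondrial surface, stood at 689, 618 and 552 in SRFHKO, against 888, 771 and 944 in control hearts (-0.49 ± 0.14, adjusted p = 0.0715). Cpt2 was at 1146, 946 and 1020 in SRFHKO and 1470, 1753 and 1390 in control hearts (-0.56 ± 0.18, adjusted p = 0.0975). In all 3 the SRFHKO arrays lay below the control arrays. Hadha had 2581, 2415 and 2289 in SRFHKO, against 3009, 2755 and 2878 in control hearts (-0.25 ± 0.10, adjusted p = 0.193), and Hadhb 7119, 6594 and 7019 in SRFHKO and 7459, 6812 and 7761 in control hearts with overlap (-0.09 ± 0.10).

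Hadh was at 2788, 2639 and 2457 in SRFHKO, against 3616, 4568 and 4554 in control hearts (-0.69 ± 0.26, limma adjusted p = 0.161). A brighter probe set of Hadh, of the _x_at kind and therefore not used, gave -0.65 ± 0.17 with an adjusted p of 0.0479 over probe sets. The call for this gene thus turned on the choice of probe set while its direction did not.

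Of the 4 uptake genes, Cd36 and Fabp3 had differences above 0 and Lpl and Slc27a1 below. Cd36 read 3784, 4588 and 5046 in SRFHKO, against 3573, 3865 and 3630 in control hearts (0.27 ± 0.09, limma adjusted p = 0.119), with overlapping arrays. Fabp3 read 12150, 11290 and 11440 in SRFHKO and 11360, 11480 and 10880 in control hearts (0.05 ± 0.08). Lpl read 10340, 8775 and 10790 in SRFHKO and 11820, 10740 and 12330 in control hearts (-0.23 ± 0.11). None of these passed.

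Among the thioesterases, Acot2 was at 1381, 1952 and 1556 in SRFHKO and 819, 1500 and 1219 in control hearts (0.49 ± 0.24). Acot1 was at 61.5, 112 and 46.0 in SRFHKO and 38.1, 53.5 and 87.8 in control hearts (0.27 ± 0.37), and both overlapped. Probes of these paralogs may share transcripts.

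Ucp3 was at 57.3, 75.0 and 62.8 in SRFHKO hearts, against 66.6, 184 and 170 in control hearts (-0.96 ± 0.34, limma adjusted p = 0.138). The control hearts themselves were spread, with 1 of the 3 within the SRFHKO range. Among peroxisomal genes the 3 differences were all below 0, from -1.19 ± 0.55 for Amacr to -0.38 ± 0.30 for Ehhadh.

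The Acadvl call without PE was lost without control replicate 1 (limma adjusted p = 0.0848), control replicate 3 (0.105), SRFHKO replicate 2 (0.117) or SRFHKO replicate 3 (0.114), and the count of members called ran from 0 to 2 over the arrays left out, with 0 without control replicate 3, SRFHKO replicate 2 or SRFHKO replicate 3 and 2 without SRFHKO replicate 1. With array brightness as a covariate 0 members were called and Acadvl differed by -0.31 (adjusted p = 0.246).

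At day 8, soon after the deletion, 0 of 33 members passed, against 0.0159% of all genes called lower and 0.0476% higher. At an unadjusted p under 0.05, 1 member was lower and 2 higher, against 4.34% and 4.40% of all genes. The member median was -0.03, against -0.00 over all genes, and 18 of 33 differences were below 0, against 50.6% of all genes. Without control replicate 1, control replicate 2 or SRFHKO replicate 2 that median was 0.10, -0.12 and 0.06.

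Slc25a20 had the smallest p at day 8: it was at 1277, 920, 1334 and 1100 in SRFHKO hearts, against 1697 and 1466 in control hearts (-0.46 ± 0.13, limma adjusted p = 0.259). Its second probe set differed by -0.06. Hadha was at 2873, 2515, 2839 and 3020 in SRFHKO and 2723 and 2065 in control hearts (0.24 ± 0.11), with overlap. Echs1 was at 1461, 1296, 1526 and 1344 in SRFHKO, against 1239 and 1180 in control hearts (0.21 ± 0.10), with no overlap. Acadvl, called at day 25, was at 3759, 3425, 3715 and 3542 in SRFHKO and 3974 and 3760 in control hearts, with a difference of -0.10 ± 0.09. With 2 control hearts, these differences rest in part on the spread borrowed from the other groups. The ratio of 3' to 5' Gapdh signal at day 8 was 0.8497 to 0.9364 in SRFHKO and 1.006 to 1.022 in control hearts. The signal of 18S ribosomal RNA was 204.4 to 362.9 in SRFHKO and 899.4 to 1773 in control hearts. Neither measure overlapped between the genotypes, and their part in the differences of day 8 was not tested.

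The change of the genotype difference between day 8 and day 25 without PE was tested as an interaction, and 0 members passed, as did 0% of all genes in either direction. At an unadjusted p under 0.05, 6 members were lower and 3 higher, against 6.21% and 4.94% of all genes. The smallest p values were those of Hadha (-0.49 ± 0.15, limma adjusted p = 0.213) and Echs1 (-0.44 ± 0.14, adjusted p = 0.221), negative meaning a lower genotype difference at day 25, and of Cd36 (0.39 ± 0.13, adjusted p = 0.258) in the other direction. The member median was -0.22, against -0.04 over all genes. Without control replicate 2 of day 8 it was -0.08, without control replicate 1 of day 8 or SRFHKO replicate 1 of day 25 it was -0.33 in both cases, and under scaling to array medians it was 0.14, against 0.31 over all genes. Day and array brightness cannot be told apart, nor can genotype and brightness at day 25. The Gapdh ratio did not overlap between the genotypes on either day without PE, and its part in this interaction was not tested.

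PE was compared with no PE within each genotype at day 25. In SRFHKO hearts 3 of 33 members fell and 0 rose, while 0.111% of all genes were called lower and 0.182% higher. All 3 were auxiliary enzymes for unsaturated fatty acids: Eci1, Decr1 and Ech1. Differences were below 0 for 31 of 33 members, against 50.9% of all genes, with a median of -0.32, against -0.01 over all genes. Brightness (75.9 to 85.4 with PE, 71.2 to 83.5 without) overlapped between these groups. The summed cardiomyocyte markers were 115700, 113600 and 120400 with PE and 136000, 114300 and 132400 without, overlapping only through SRFHKO replicate 2. Of 16 cardiomyocyte markers 14 had differences below 0 (median -0.14), as did 8 of 9 adipocyte markers (median -0.27). The summed adipocyte signal was 6449 to 7302 with PE, against 7638 to 8994 without, with no overlap, and 0 markers of either list passed, or 1 and 2 at an unadjusted p under 0.05 in limma. Fibroblast markers went the other way, with 3 of 12 below 0 and a median of 0.45. The part of these markers in the members' differences was not tested.

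Eci1 was at 1951, 1424 and 2008 in SRFHKO hearts with PE, against 3450, 2863 and 3154 without, 1.77-fold lower with PE (-0.83 ± 0.15, limma adjusted p = 0.0238). Decr1 was at 1375, 1527 and 1642 with PE, against 2351, 2146 and 2078 without, 1.45-fold lower (-0.53 ± 0.11, adjusted p = 0.0399). Ech1 was at 4709, 4712 and 5447 with PE, against 7715, 6407 and 6793 without, 1.41-fold lower (-0.49 ± 0.10, adjusted p = 0.0485). None of the 3 had overlapping groups. Eci2, the remaining auxiliary enzyme, differed by -0.34 ± 0.14 (adjusted p = 0.365).

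Near the threshold in the same contrast were Etfb, at 2800, 2948 and 3515 with PE against 5088, 3789 and 4014 without (-0.47 ± 0.10, limma adjusted p = 0.0567), and Acadvl, at 2551, 2651 and 2981 with PE against 3963, 3202 and 3330 without (-0.36 ± 0.09, adjusted p = 0.101). Acot1 was at 32.8, 24.1 and 24.0 in SRFHKO hearts with PE, against 61.5, 112 and 46.0 without (-1.29 ± 0.37, adjusted p = 0.146). Acot2 was at 821, 795 and 1059 with PE, against 1381, 1952 and 1556 without (-0.87 ± 0.24, adjusted p = 0.135). Both thioesterases had all arrays with PE below those without. Cd36 was at 3907, 3647 and 3765 with PE, overlapping 3784, 4588 and 5046 without (-0.24 ± 0.09, adjusted p = 0.310). Slc27a1 and Acads differed by 0.00 ± 0.24 and -0.01 ± 0.12.

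The 3 calls rested on few arrays. Without SRFHKO replicate 1, 2 or 3, or SRFHKO PE replicate 2, 0 members were called, with adjusted p of Eci1 at 0.0969, 0.0671, 0.0825 and 0.163. Without SRFHKO PE replicate 1 Eci1 alone was called, and the lowest and highest adjusted p over all alternatives were 0.0241 and 0.163 for Decr1 and 0.0358 and 0.286 for Ech1.

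In control hearts 0 of 33 members passed for PE against no PE, while 0% of all genes were called lower and 0.0317% higher. At an unadjusted p under 0.05, 10 members were lower and 0 higher, against 6.10% and 4.43% of all genes. Differences were below 0 for 30 of 33 members, against 54.9% of all genes, with a median of -0.21, against -0.03 over all genes. Among markers of cell types, 14 of 16 endothelial markers (median -0.20), 8 of 9 adipocyte markers (-0.57) and 14 of 16 cardiomyocyte markers (-0.10) had differences below 0. None of them passed, while 4, 0 and 1 were lower at an unadjusted p under 0.05 in limma. The summed endothelial signal was 5019 to 5945 with PE, against 6398 to 6464 without, and the summed adipocyte signal was 6398 to 7588 with PE, against 7760 to 8363 without. Neither sum overlapped between the groups, and their part in the members' differences was not tested.

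The smallest p among members was that of Ucp3, at 49.8, 42.3 and 48.0 in control hearts with PE, against 66.6, 184 and 170 without (-1.42 ± 0.34, limma adjusted p = 0.191). It was past the threshold without control replicate 1, the array lowest among the controls, when 1 member was called. Ech1 was at 4820, 5738 and 4990 with PE, against 6386, 6428 and 6891 without (-0.35 ± 0.10, adjusted p = 0.231), and Decr1 at 1960, 2092 and 1750 with PE, against 2160, 2556 and 2843 without (-0.38 ± 0.11, adjusted p = 0.218). Both auxiliary enzymes thus lay lower with PE on every array in control hearts too, but did not pass. Eci1 was at 3195, 2836 and 3051 with PE, against 3485, 3214 and 4056 without (-0.24 ± 0.15). Cd36 (0.06 ± 0.09), Acot13 (0.02 ± 0.10) and Amacr (0.50 ± 0.55) were the 3 members with a difference above 0, as read here. Further probe sets of Cd36 gave -0.05 and -0.06. For each of Acadl, Cpt1a, Crat, Etfdh, Hadhb and Lpl a further probe set lay above 0, unlike the one used.

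**Figure D5:**
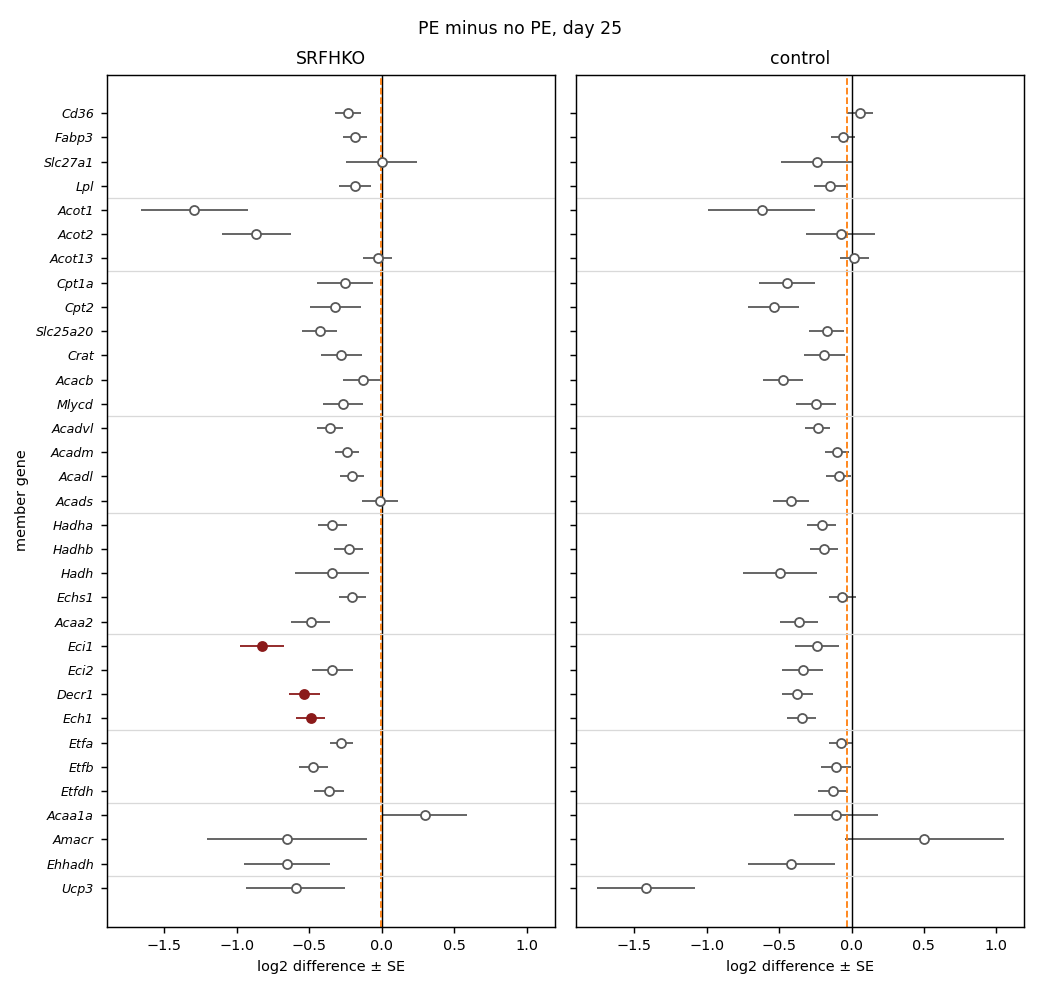
Points are log2 differences of PE minus no PE at day 25 for the 33 members, with standard errors, in SRFHKO hearts at the left and control hearts at the right. Filled red points have a limma adjusted p under 0.05 and the dashed line is the median of all genes. Of 33 points, 31 lie below 0 in SRFHKO and 30 in control hearts, and 3 and 0 are filled.

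Whether PE acted differently in SRFHKO and control hearts was tested as the interaction of PE and genotype, and 0 members passed, against 0.00793% of all genes lower and 0.0159% higher. At an unadjusted p under 0.05, 4 members were lower and 1 higher, against 3.19% and 4.32% of all genes. The 4 were Eci1 (-0.59 ± 0.21, limma adjusted p = 0.580), Etfb (-0.36 ± 0.14), Cd36 (-0.30 ± 0.13) and Acot2 (-0.79 ± 0.34), negative meaning a lower PE difference in SRFHKO, and the 1 was Acads (0.40 ± 0.18, adjusted p = 0.630). The calls in SRFHKO and not in control hearts are therefore not shown to be particular to SRFHKO. The 2 PE contrasts share no hearts, but each shares its hearts with the genotype contrasts above.

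Other genes of the pathway were taken from lists that hold no member, chosen, like the members, with earlier results of these data known. Some genes, such as Lpin1, are in more than 1 list. Under PE 3 of 31 other genes of uptake, activation and storage fell in SRFHKO and 0 rose, against 0.896% and 0.737% of all genes: Acss1, a mitochondrial acetyl-CoA synthetase (-0.51 ± 0.10, limma adjusted p = 0.0129), Dgat2, an enzyme of triglyceride synthesis (-0.93 ± 0.20, adjusted p = 0.0205), and Plin4, a lipid droplet coat protein (-0.97 ± 0.24, adjusted p = 0.0479). Without PE 1 of the 31 fell, against 1.08% of all genes: the coat protein Plin3 (-0.67 ± 0.11, adjusted p = 0.00501). Of 28 other genes of mitochondrial and peroxisomal oxidation, 1 fell under PE and 2 without it, and 0 rose, against the same shares of all genes. Pdk2, a kinase that restrains pyruvate dehydrogenase, fell in both (-0.49 ± 0.11 with PE and -0.57 ± 0.11 without), and Echdc3 fell without PE (-0.59 ± 0.13, adjusted p = 0.0271). At day 8 and for PE in either genotype, limma called 0 genes of these lists. At an unadjusted p under 0.05, 7 uptake and storage genes were lower and 1 higher at day 8, against 4.34% and 4.40% of all genes, 6 and 0 for PE in SRFHKO, against 5.29% and 5.65%, and 8 and 1 for PE in control hearts, against 6.10% and 4.43%. For the oxidation list these counts were 2 and 1, 3 and 0, and 5 and 1.

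The nuclear receptors and coactivators that drive this pathway in heart had 3 of 18 genes fallen and 0 risen in SRFHKO under PE, against 0.896% and 0.737% of all genes, and 0 past the limma threshold without PE, at day 8 or for PE in either genotype. At an unadjusted p under 0.05, 3 were lower and 0 higher without PE, against 10.1% and 8.23% of all genes. These counts were 2 and 0 at day 8, 5 and 0 for PE in SRFHKO and 2 and 0 for PE in control hearts, with the shares of all genes given for the other lists. Ppara, the receptor of the PPAR family most tied to cardiac fatty acid oxidation, was at 142, 109 and 153 in SRFHKO with PE, against 315, 306 and 327 in control with PE, 2.35-fold lower without overlap (-1.23 ± 0.22, limma adjusted p = 0.00850). Ppargc1b, a PGC-1 coactivator, was at 289.9, 153 and 263 in SRFHKO with PE, against 502, 539.8 and 416 in control with PE, 2.12-fold lower (-1.08 ± 0.19, adjusted p = 0.00674). Rxrg, a partner of PPAR receptors, was at 164, 144 and 159 in SRFHKO with PE, against 217.5, 227 and 304 in control with PE, 1.58-fold lower (-0.66 ± 0.15, adjusted p = 0.0280). Ppargc1a, the better known coactivator, was at 1178, 592 and 884 in SRFHKO with PE, against 1196, 1091 and 1384 in control with PE (-0.52 ± 0.18, adjusted p = 0.164). Without PE the differences of Ppara and Ppargc1b were -0.48 ± 0.22 and -0.67 ± 0.19 (adjusted p = 0.254 and 0.0669).

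In the same contrast 4 of 16 cardiomyocyte markers fell under PE (Tnnc1, Myl3, Ldb3 and Myom1, with a median of all 16 of -0.27), and 3 of 16 fell without PE (Tnnc1, Myl3 and Myom1, median -0.29). The members' medians stood at -0.30 and -0.18 in these contrasts. Of 16 endothelial markers 0 fell with PE and 2 without (Cldn5 and Ramp2), and the median was -0.11 with PE and -0.34 without. Among 12 fibroblast markers, 1 rose for PE in SRFHKO hearts, Postn, and the median of all 12 there was 0.45. Of 8 brown adipocyte markers 6 were above the filter, Ucp1 and Otop1 being those that were not, and 3 of the 6 (Cox7a1, Cox8b and Ppargc1a) are known from heart muscle too. Their summed signal was 11170 to 12900 in SRFHKO with PE, 12050 to 15060 in SRFHKO, 13390 to 14860 in control with PE and 17300 to 17920 in control hearts, and 5 of 6 were below 0 for SRFHKO against control without PE (median -0.34) and 3 of 6 with PE (median 0.01). The part of cell makeup in the members' values was not tested.

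Of the 33 members 17 had several probe sets above the filter. In SRFHKO against control with PE the further probe sets of Acaa2 (-0.42 and -0.24, beside -0.44 for the one used), Slc25a20 (-0.29 beside -0.32), Lpl (-0.27 beside -0.26) and Decr1 (-0.35 beside -0.35) lay close to the values given. Slc27a1 (-0.35 beside 0.06), Hadhb (0.11 and -0.57 beside -0.13), Cpt2 (0.17 beside -0.35) and Acaa1a (0.02 beside -0.25) disagreed in sign. Ucp3 (-1.13 beside -0.14), Acot2 (-0.82 beside -0.30) and Fabp3 (-0.37 beside -0.08) agreed in sign but not in size. The further probe sets of Cpt2, Acaa1a, Ucp3, Acot2 and Fabp3 were dimmer, with mean log2 levels of 4.64 to 5.96, against 6.04 to 13.26 for those used. Without PE, signs differed between probe sets of Acaa2 (0.18 and -0.10 beside -0.31) and Hadhb (0.36 and -0.24 beside -0.09). So they did for Crat (0.27 and 0.15 beside -0.09) and Cpt1a (0.17 and 0.22 beside -0.10). Dim further probe sets of Acadl, Etfdh and Fabp3 also disagreed in sign there, and those of the remaining members agreed. The count of negative differences without PE thus depends on the probe sets used. For PE in SRFHKO the second Decr1 probe set differed by -0.78, beside -0.53. Acaa1a, a peroxisomal thiolase, had only probe sets of the _x_at kind, and the brighter read 93.6, 52.5 and 103 in SRFHKO with PE against 90.2, 84.2 and 114 in control with PE (-0.25 ± 0.29).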

How the data were processed

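For each of 45101 probe sets on 18 Affymetrix arrays, 1 per heart, the deposited intensity is on a linear scale and was produced by the authors with GCOS, per the submitters' processing notes, which give no version, signal algorithm or scaling target. Trimmed means of 46.6 to 147.7 show no common level. Groups came from the sample titles.

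Each array was scaled to a common 2% trimmed mean (90.6), a pseudocount of 2 was added and log2 taken, which understates changes of dim genes. Control probe sets (64) and those with a mean below the 40th percentile (scaled signal 9.94) were left out, leaving 27022. Genes were named from the platform annotation, updated by gene ID with RefSeq names (34741 matched; 34945 probe sets had 1 symbol, 932 several, 9160 none). Per gene the probe set of highest mean was used, leaving out those of the _x_at kind unless the gene had no other. One limma 3.58.1 model in R 4.3.3 (6 group means, intensity trend, two-sided, Benjamini-Hochberg over 12616 genes, threshold 0.05) gave 7 contrasts. Its code was also run on simulated data with independent noise and no brightness difference, which does not test its fit to these arrays. With 3 hearts against 3 an exact permutation test cannot go below p = 0.1.

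Members with values per array were those past the threshold and a fixed list of transport and chain-length enzymes. Genes of other lists were named if past the threshold, with up to 4 others by smallest p. Members and lists were chosen with earlier results of these data known. Correlations between arrays were 0.924 to 0.973, with 0 identical pairs. Alternatives were other scalings, pseudocounts, filters, probe sets, variance models, a replicate block, brightness as a covariate and leaving out arrays. Promoter windows were searched in Python 3. Acsl1 and Cpt1b were not analysed.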

Additional observations from a re-analysis of the deposited data

Results flagged for a closer look

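Among the 33 members, the 4 SRFHKO hearts of day 8 formed the 1 group large enough to look for a single array far from the others, and 3 members had one. The gap of the outlying array to its neighbour, divided by the whole range on the log2 scale, was 0.871 for Fabp3, 0.894 for Acadl and 0.913 for Ehhadh, above the critical value of Dixon's test at the 95% level. Fabp3 was low in replicate 2 (6939, against 8250 to 8464), Acadl was high in replicate 4 (6303, against 5617 to 5686) and Ehhadh was low in replicate 4 (47.5, against 54.7 to 55.5). Chance flags about 1 in 20 such groups, and 33 were examined. No interaction passed the threshold for any member.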

How the results depend on the processing

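No member called in a contrast changed sign under any alternative. Over 19 alternatives Acadvl kept its call in 18 with PE and in 9 without PE, Eci1 in 14 (SRFHKO against control with PE) and 13 (PE in SRFHKO), Etfb in 13, Amacr in 11, Decr1 in 7 and Ech1 in 6. For the genotype contrast of day 25 without PE, where 1 member was called, the count was 0 with no filter, no intensity trend or brightness as a covariate, 2 with the stricter filter, the brightest probe set or array weights, and 3 with the mean of all probe sets; single arrays left out gave 0 to 2. With PE (4 called) it was 1 under scaling to the median, no intensity trend or brightness as a covariate, and 1 to 5 with arrays left out. For PE in SRFHKO (3 called) it was 1 under scaling to the median, no filter, mean of all probe sets or brightness as a covariate, 0 with no intensity trend or with the compared groups only, and 0 to 4 with arrays left out. For PE in control it ran from 0 to 1. For the interaction of day and genotype scaling to the median gave 2, Cd36 and Slc25a20, both higher. That scaling moved the median of all genes to -0.13 (day 8), 0.17 (day 25), 0.12 (with PE), 0.12 (PE in control) and 0.31 (day and genotype). The member medians became -0.16, 0.035, -0.17, -0.0524 and 0.14 there, and -0.22 for PE and genotype. Calls in all, lower and higher, were then 8 and 5 at day 8 (2 and 6 before), 49 and 791 at day 25 (136 and 159), 40 and 131 with PE (113 and 93) and 7 and 298 for day and genotype (0 and 0). The members with SRFHKO PE arrays apart numbered 6 under that scaling. With arrays left out the member median ran from -0.12 to 0.10 at day 8 and from -0.33 to -0.0827 for day and genotype. With brightness as a covariate 39 genes in all were called at day 25 without PE, against 136 lower and 159 higher in the main fit. With PE 56 were called, against 113 lower and 93 higher. The causes of these shifts were not tested. The replicate numbers did not pair the hearts: same-number correlations of deviations ran from -0.08 to 0.09, and 6 of 18 arrays correlated best with their own number. With the replicate block Hadha (adjusted p = 0.0288) and Acaa2 (0.0412) were added for SRFHKO against control with PE and Decr1 (0.0630) was lost for PE in SRFHKO. Dim genes such as Amacr, Acot1, Ehhadh and Ucp3 are the least precise.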
